A study of Mus musculus with 4 samples.

Results

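Foxp1, Foxn3, Atxn1, Msi2, Prkca and Elmo1 are 6 long protein-coding genes, of 21887 measured, over which peaks of dimethylated lysine 79 of histone H3 (H3K79me2) covered far more sequence after inhibition of SCD1 than in control cells. They were chosen by that difference in covered length. Among genes covered over at least 50% of the body in 1 of the 2 peak lists only, they are 6 of the 8 with the most added covered length. Elmo1, at the edge of this choice, gained 248 kb, and the next genes outside it, Arid1b and Utrn, gained 229 kb and 227 kb. The other two inside it, Aff3 and Maml3, are not described further. Coverage of the 6 genes in the 2 lists is therefore a description, with no test.

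Chromatin immunoprecipitation and sequencing with an antibody to H3K79me2 was applied to mouse double negative thymocytes at the DN3 stage. The cells were grown in vitro from haematopoietic stem cells of C57BL/6 mice on OP9-DL1, a stromal line that presents a Notch ligand, with Flt-3L at 5 ng/mL and IL-7 at 2 ng/mL. Control cells received DMSO, and inhibitor cells received A939572, which blocks SCD1, the desaturase that converts stearic to oleic acid. The labels give neither the dose of A939572, nor the number and age of the mice, nor how many stromal cells were left at harvest. Each condition had 1 ChIP library, so no value has a replicate error, no difference has a replicate check, and no p-value was computed. The 2 input samples are not analysed here.

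H3K79me2 is placed by the methyltransferase DOT1L, which travels with elongating RNA polymerase, and it marks transcribed genes. It is usually highest just downstream of the transcription start and fades toward the end of the gene. In long transcribed genes it can form domains over much of the body. Foxp1 and Foxn3 are forkhead transcription factors, and FOXP1 maintains quiescence of naive T cells. Ataxin-1, the product of Atxn1, works with the repressor Capicua. Musashi-2, from Msi2, binds messenger RNA and regulates translation in blood stem cells. Prkca encodes a protein kinase C activated by calcium and diacylglycerol. ELMO1 pairs with DOCK proteins to activate the GTPase Rac in cell migration and engulfment.

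The mark was read against transcription starts, so windows are shown around the starts of Foxp1, Prkca and Elmo1 and the first Msi2 start. They run from 250 bases before to 50 bases after each start listed by RefSeq for GRCm38.p6, the assembly that mm10 names, and are written 5′ to 3′ with every CG dinucleotide in capitals. The table held 10 starts for 5 of the 6 genes. Atxn1 had no entry.

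Foxp1, the first start (chr6:99520944-99521243, minus strand): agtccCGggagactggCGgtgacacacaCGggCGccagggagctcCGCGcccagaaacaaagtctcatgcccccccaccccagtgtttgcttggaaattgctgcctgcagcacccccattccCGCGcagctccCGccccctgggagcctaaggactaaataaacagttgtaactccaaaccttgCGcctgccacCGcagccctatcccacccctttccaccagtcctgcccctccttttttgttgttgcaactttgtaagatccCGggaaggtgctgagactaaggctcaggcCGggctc
Foxp1, the second start (chr6:99266466-99266765, minus strand): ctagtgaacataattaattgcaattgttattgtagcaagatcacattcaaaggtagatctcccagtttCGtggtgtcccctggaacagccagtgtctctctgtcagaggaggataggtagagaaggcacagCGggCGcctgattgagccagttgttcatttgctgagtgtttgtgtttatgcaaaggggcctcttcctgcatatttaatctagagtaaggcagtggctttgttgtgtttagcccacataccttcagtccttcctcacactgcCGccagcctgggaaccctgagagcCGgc
Foxp1, the third start (chr6:99028249-99028548, minus strand): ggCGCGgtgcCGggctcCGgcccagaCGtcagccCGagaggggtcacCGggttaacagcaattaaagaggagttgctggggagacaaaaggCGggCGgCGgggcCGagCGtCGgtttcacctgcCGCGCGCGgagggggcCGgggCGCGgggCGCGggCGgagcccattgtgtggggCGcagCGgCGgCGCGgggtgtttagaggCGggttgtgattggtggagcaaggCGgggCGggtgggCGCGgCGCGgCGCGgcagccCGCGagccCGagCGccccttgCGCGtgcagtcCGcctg
Msi2, first of its starts (chr11:88718228-88718527, minus strand): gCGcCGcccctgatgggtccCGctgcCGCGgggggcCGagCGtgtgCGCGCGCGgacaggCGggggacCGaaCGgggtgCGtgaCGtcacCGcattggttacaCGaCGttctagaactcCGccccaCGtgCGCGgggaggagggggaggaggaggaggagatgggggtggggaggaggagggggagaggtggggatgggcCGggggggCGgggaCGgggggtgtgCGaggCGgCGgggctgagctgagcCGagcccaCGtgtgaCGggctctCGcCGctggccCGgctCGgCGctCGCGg
Prkca (chr11:108343839-108344138, minus strand): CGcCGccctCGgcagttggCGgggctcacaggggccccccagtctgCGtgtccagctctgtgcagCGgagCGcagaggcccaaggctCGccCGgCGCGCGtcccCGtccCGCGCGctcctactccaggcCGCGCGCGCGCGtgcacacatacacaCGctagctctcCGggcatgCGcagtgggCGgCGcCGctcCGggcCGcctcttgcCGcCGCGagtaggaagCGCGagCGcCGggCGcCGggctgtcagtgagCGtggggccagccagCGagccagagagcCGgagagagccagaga
Elmo1, the first start (chr13:20090257-20090556, plus strand): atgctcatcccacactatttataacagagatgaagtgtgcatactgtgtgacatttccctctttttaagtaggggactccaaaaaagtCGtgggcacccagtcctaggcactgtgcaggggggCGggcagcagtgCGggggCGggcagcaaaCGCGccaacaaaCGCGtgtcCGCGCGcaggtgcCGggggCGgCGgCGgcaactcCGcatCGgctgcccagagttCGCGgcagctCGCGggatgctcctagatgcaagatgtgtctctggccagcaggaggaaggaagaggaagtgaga
Elmo1, the second start (chr13:20472740-20473039, plus strand): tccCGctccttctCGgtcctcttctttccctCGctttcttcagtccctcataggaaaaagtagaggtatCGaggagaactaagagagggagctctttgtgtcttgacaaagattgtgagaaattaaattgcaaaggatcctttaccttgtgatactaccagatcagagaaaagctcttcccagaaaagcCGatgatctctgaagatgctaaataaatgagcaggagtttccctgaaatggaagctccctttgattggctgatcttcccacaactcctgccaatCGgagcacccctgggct

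Base composition differed widely among these windows. The third Foxp1 start held 44 CG dinucleotides, the Prkca start 42 and the first Msi2 start 39, against a median of 7 and quartiles of 3 and 20 over 32851 listed windows. The first Elmo1 start held 21 and the first Foxp1 start 13. By contrast, the second Foxp1 start held 5 and the second Elmo1 start 6, close to that median. Of 4 motifs searched on both strands, TGTTTAC (a forkhead site, in 3.65% of all windows) and TGTGGTT (a RUNX site, 5.27%) were in none of the 10 windows. TATAAA (13.6% of all windows) was in the first Elmo1 window, and CACGTG (an E-box, 7.15%) was in the 3 overlapping Msi2 windows.

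The peak lists themselves differed as wholes. The control list held 124962 peaks and the inhibitor list 35018, of which 0.643% and 18.6% had q of at most 0.05. The covered length was 235 Mb and 234 Mb. Read depth is not in the lists, so it is unknown. With 1 library per condition, treatment, depth and efficiency of the immunoprecipitation cannot be told apart at any of the 6 genes.

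In the control list the 6 genes carried many narrow, weak peaks. Control peaks covered 11.0% to 23.3% of the gene bodies (median 20.6%), in 261 peaks with a median width of 1.44 kb, and the widest spanned 11.1 kb. The q value of every one of them was above 0.05, since the largest −log10 q was 0.439. Fold enrichment, the authors' ratio of a peak to its local background as a mean over the peak, had a median of 1.65 here and of 1.66 over the whole control list. In the inhibitor list 109 peaks covered 67.4% to 99.0% of the bodies (median 81.2%). Only 8 of these had q of at most 0.05, and they were wide, from 63.5 kb to 303 kb, with fold enrichments of 2.32 to 4.04. The 101 weaker ones had a median width of 2.79 kb and a median fold of 1.66. Peaks were called separately in each library, so a given fold or q need not mean the same in both lists. Where both lists are shown at the same q cutoff, the values describe each list on its own.

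**Figure D1:**
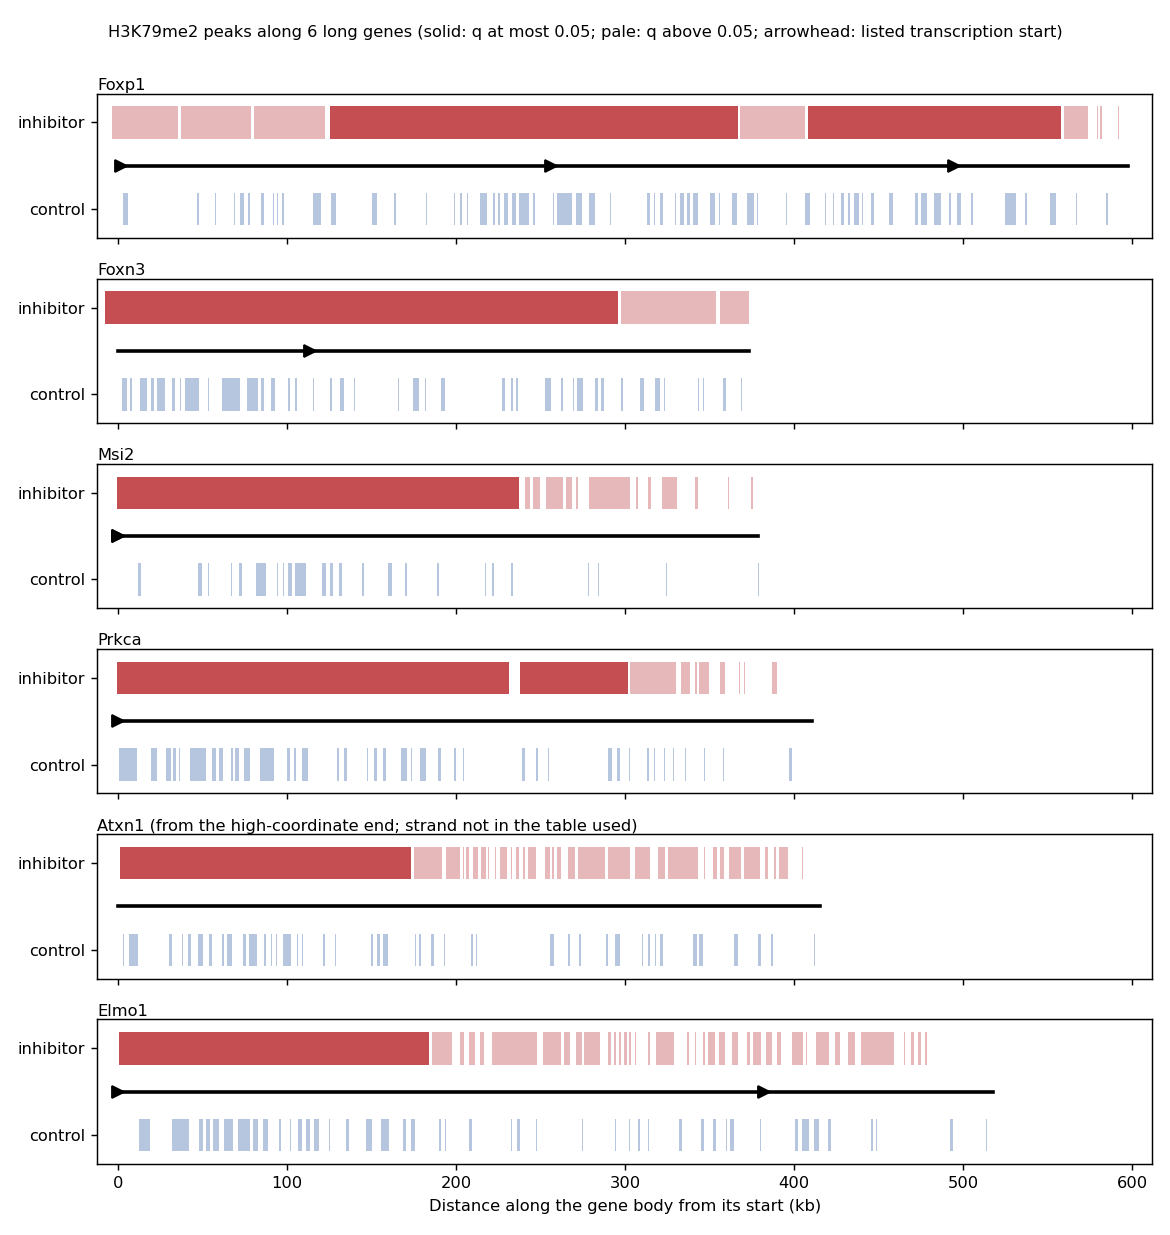
Peaks along the 6 gene bodies, in kb from the start of each gene (Atxn1 from its high-coordinate end), for the inhibitor list (red, above each gene) and the control list (blue, below). Solid bars have q of at most 0.05 and pale bars have q above 0.05, and arrowheads are listed transcription starts. All 8 solid bars are in the inhibitor list, and the control peaks are pale and narrow throughout.

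Marked is used here for a gene with 50% or more of its body under peaks. By that measure inhibitor peaks marked 6 of 6 genes and control peaks 0. Inhibitor peaks marked 26.1% of all coding genes and control peaks 5.47%, and of the 990 coding genes of at least 200 kb they marked 10.5% and 1.21%. All 6 gained at least 25 percentage points of coverage, as did 30.1% of all coding genes and 10.2% of the long ones. The choice of genes fixes these counts, so nothing is read from them. With peaks at q of at most 0.05 alone, inhibitor coverage was 35.5% to 79.3% and control coverage 0%. Foxp1, Foxn3, Msi2 and Prkca were then still covered over at least 50%, which held for 19.6% of all coding genes and 4.44% of the long ones. Atxn1 and Elmo1 were covered over 41.4% and 35.5% by such peaks. Each of the 6 held at least 1 of them, as did 34.7% of all coding genes and 21.9% of the long ones. In the pairs of percentages below, the control value comes first unless the sentence says otherwise.

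**Figure D2:**
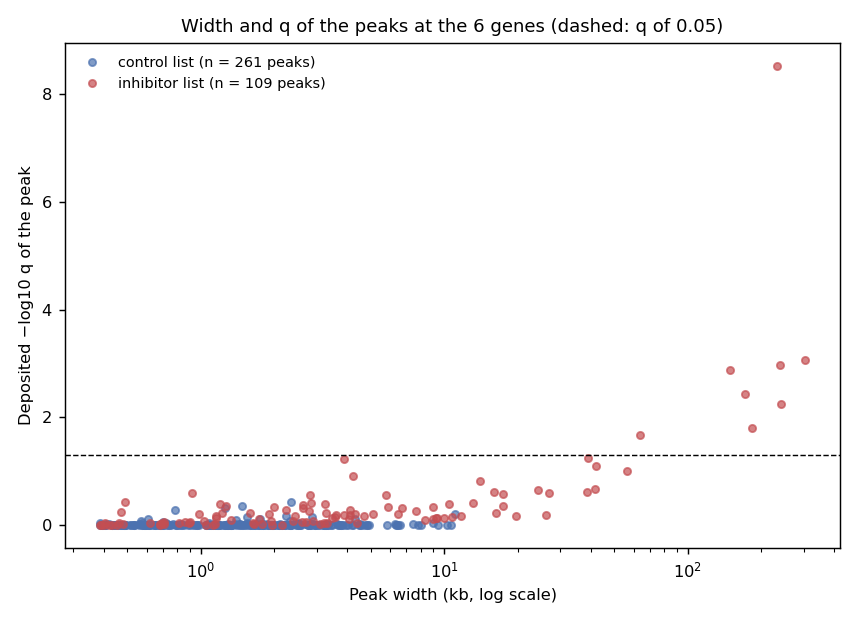
Width in kb (log scale) against the deposited −log10 q for the 261 control and 109 inhibitor peaks at the 6 genes, 1 point per peak, with the dashed line at q of 0.05. The 8 points above the line are inhibitor peaks of 63.5 kb or more, and the highest is the Prkca peak at 8.53.

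Foxp1 lies on chromosome 6 from 98925342 to 99522746 (mm10), on the minus strand, and is the longest of the 6 at 597 kb. Control peaks, 65 in all with a median width of 1.44 kb, covered 21.8% of it. The inhibitor list held 10 peaks there, which covered 94.6%. The strong ones were a peak of 241 kb (99156085 to 99397476; fold 2.46, −log10 q 2.24) and a peak of 149.7 kb (98964600 to 99114338; fold 2.65, −log10 q 2.87). Neither lay at the most upstream end. They began 125 kb and 408 kb into the body, and each contained 1 of the 3 listed starts, the second at 256 kb and the third at 494 kb. The first start, 1.75 kb into the body, lay in a weaker peak of 38.8 kb with a fold of 2.14 and a −log10 q of 1.24. No control peak contained any of the 3 starts. In the 5 kb around each start, control peaks covered 26.5%, 13.9% and 34.2% and inhibitor peaks 100% each. Joining inhibitor peaks less than 5 kb apart gave 3 blocks, the widest of 574 kb or 96.0% of the body, whereas the widest control block so joined was 32.5 kb.

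Foxn3, a forkhead repressor on the minus strand of chromosome 12 (99190081 to 99563667, 374 kb), had the fullest inhibitor coverage of the 6. Control peaks, 40 in number, covered 23.3%, and 3 inhibitor peaks covered 99.0%. One of them spanned 303 kb (99267574 to 99570966; fold 2.72, −log10 q 3.06), which makes it number 2 in width among the 35018 inhibitor peaks. It began 7.30 kb outside the upstream end of the gene and covered 79.3% of the body. The other two, of 56.2 kb and 17.4 kb, had q above 0.05. The longest uncovered stretch was 2.08 kb in the inhibitor list and 33.5 kb in the control list. The 1 start of Foxn3 that was listed lies 114 kb into the body, inside the 303 kb peak. No start was listed at the upstream end, from which coverage along Foxn3 is read here. A small coding gene, Gm51999, lies within Foxn3 and was covered over 0% and 100%, by peaks that cannot be given to 1 of the pair.

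Atxn1 lies on chromosome 13 (45549755 to 45964991, 415 kb). Its strand was not in the table used, so its ends are named by coordinate. Control coverage was 16.5%, from 44 peaks of at most 4.83 kb, the narrowest maximum of the 6 genes. Inhibitor coverage was 76.7%, from 33 peaks. Only 1 of these had q of at most 0.05, a peak of 172 kb (45791780 to 45963717; fold 2.46, −log10 q 2.43) that ended 1.27 kb inside the high-coordinate end of the gene. Toward the low-coordinate end the inhibitor list held a series of short weak peaks, which covered 60.2% of the remaining 243 kb.

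Msi2, on the minus strand of chromosome 11 (88339382 to 88718306, 379 kb), had the lowest control coverage, 11.0% from 26 peaks, with a largest −log10 q of 0.0389. In the control list part 1 of 10 from the start was covered over 4.10% and part 3 over 43.0%, and the longest uncovered stretch was 53.9 kb. The inhibitor list covered 79.1%. Most of that was 1 peak of 238 kb (88480895 to 88718994; fold 2.71, −log10 q 2.98) that contained all 3 listed starts and began 688 bp upstream of the gene. No control peak reached into the 5 kb around those starts, of which inhibitor peaks covered 64.4% to 65.3%. Beyond 237 kb, inhibitor coverage of the remaining 142 kb was 44.1%.

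Prkca, on the minus strand of the same chromosome (107933387 to 108343888, 411 kb), held the strongest peak of the 6 genes. It spanned 232 kb from 502 bp upstream of the start (108112597 to 108344390), with a fold of 4.04 and a −log10 q of 8.53, and stood at number 1078 of the inhibitor list by q. A second peak at q of at most 0.05 followed, 63.5 kb wide with a fold of 2.36 and a −log10 q of 1.68, and ended 302 kb into the body. All inhibitor peaks together covered 83.2%. In the control list 40 peaks covered 21.7%, with a largest −log10 q of 0.439, the highest among the control peaks of the 6 genes. Within the 232 kb peak, control peaks covered 31.8%. The start itself lay under the 232 kb peak and under no control peak. In the 5 kb around the start, control peaks covered 40.5% and inhibitor peaks 60.1%, and the upstream part of that window lies outside the gene.

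Elmo1, on the plus strand of chromosome 13 (20090507 to 20608353, 518 kb), had the lowest inhibitor coverage of the 6, 67.4%, against 19.5% in the control list. Its only inhibitor peak at q of at most 0.05 spanned 184 kb (20091094 to 20274789; fold 2.32, −log10 q 1.80) and began 587 bp downstream of the first start. The rest of the gene held short weak inhibitor peaks over 49.5% of its length. The second listed start, 382 kb into the body, lay under no peak in either list. In the 5 kb around it inhibitor peaks covered 34.0% and control peaks 8.92%. Control peaks numbered 46, and none touched the 5 kb around the first start.

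When each body was cut at its midpoint, inhibitor coverage was higher on the start side in 5 of the 5 genes with a known strand. The median was 100% on the start side and 66.4% on the far side. With peaks at q of at most 0.05 alone it was 4 of 5, because Foxp1 then had 58.1% on the start side and 72.9% beyond. The smallest contrast was in Foxn3, with 100% and 97.9%, and the largest in Elmo1, with 92.1% and 42.6%. Control coverage was higher on the start side in 4 of 5, with medians of 28.5% and 10.4%. The exception was Foxp1, with 21.3% on the start side and 22.4% beyond. On the high- and low-coordinate sides of Atxn1, inhibitor peaks covered 95.7% and 57.6%, and control peaks 22.0% and 11.1%. Other genes showed the same slope. Among 77 other long genes with a known strand that inhibitor peaks marked, the start side was the more covered one for 84.4% by inhibitor peaks and for 87.0% by control peaks.

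**Figure D3:**
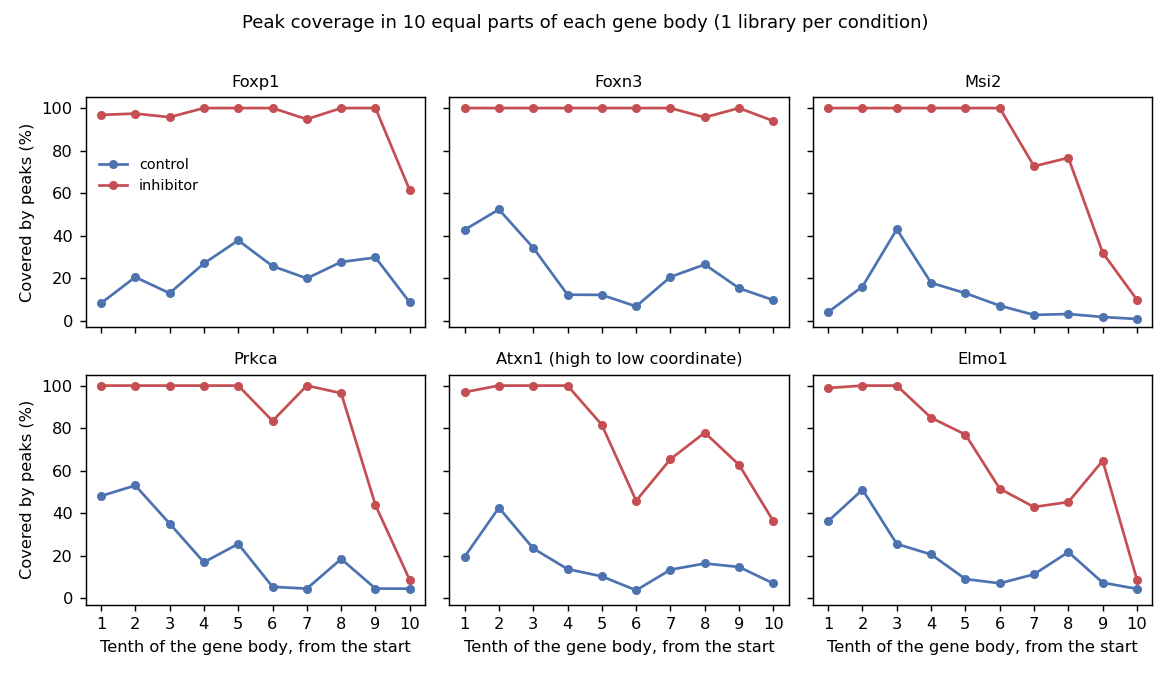
Covered percent in 10 equal parts of each gene body, from the start (Atxn1 from high to low coordinate), in the control list (blue) and the inhibitor list (red), 1 library each. Inhibitor coverage is at least 95.7% in the first 3 parts of every gene and lowest in part 10, from 8.60% in Prkca to 93.9% in Foxn3, with a dip to 45.9% in part 6 of Atxn1, while the highest control value is 53.1% in part 2 of Prkca.

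The weak control peaks lay mostly where the inhibitor list had its strong domains. Inside the inhibitor peaks at q of at most 0.05, control peaks covered 16.6% of the sequence in Msi2, 24.0% in Atxn1, 25.9% in Foxn3, 26.4% in Foxp1, 27.9% in Prkca and 36.7% in Elmo1. Over the rest of each body they covered 1.59% in Msi2, 5.72% in Prkca, 10.04% in Elmo1, 11.2% in Atxn1, 13.2% in Foxp1 and 13.3% in Foxn3. The value inside was higher in all 6 genes. Of the control covered length, 60.1% (Atxn1) to 94.6% (Msi2) fell inside the strong domains, which made up 35.5% to 79.3% of the bodies. Counting all inhibitor peaks, 84.6% (Elmo1) to 100% (Foxn3) of the control length lay under them. In Foxn3, Msi2, Prkca and Elmo1 both the strong domains and the control coverage were greater on the start side, and the part of this shared position in the shares was not tested.

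**Figure D4:**
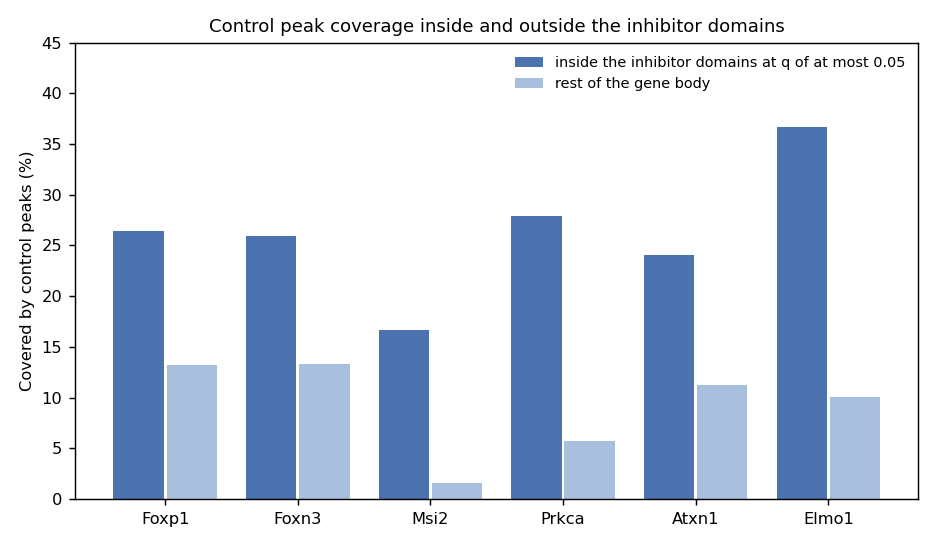
Percent of sequence covered by control peaks inside the inhibitor domains at q of at most 0.05 (dark bars) and over the rest of the gene body (pale bars), for each of the 6 genes in 1 control library. The dark bar is the higher one in every gene, from 16.6% against 1.59% in Msi2 to 36.7% against 10.04% in Elmo1.

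Gene length entered the choice, because added length can be large only in a long gene, but most long genes had little coverage. Of the 399 coding genes at least as long as Foxn3, the shortest of the 6, inhibitor peaks marked 13, these 6 among them, and control peaks 0. The median coverage of all 990 genes of at least 200 kb was 5.40% and 0.195%. None of 12 long genes known for brain or muscle was marked in either list, and their medians were 5.28% and 0.0528%. Cntnap2, a neuronal adhesion gene, was covered over 5.71% and 0.0510%. Compared with the 98 other long genes marked in the inhibitor list, the 6 genes had lower control coverage (a median of 20.6% against 28.8%) and higher inhibitor coverage (81.2% against 71.7%), which the choice by difference favours. A control peak at q of at most 0.05 was present in 3.92% of all coding genes and 1.92% of the long ones, so its absence from 6 genes is near the background.

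**Figure D5:**
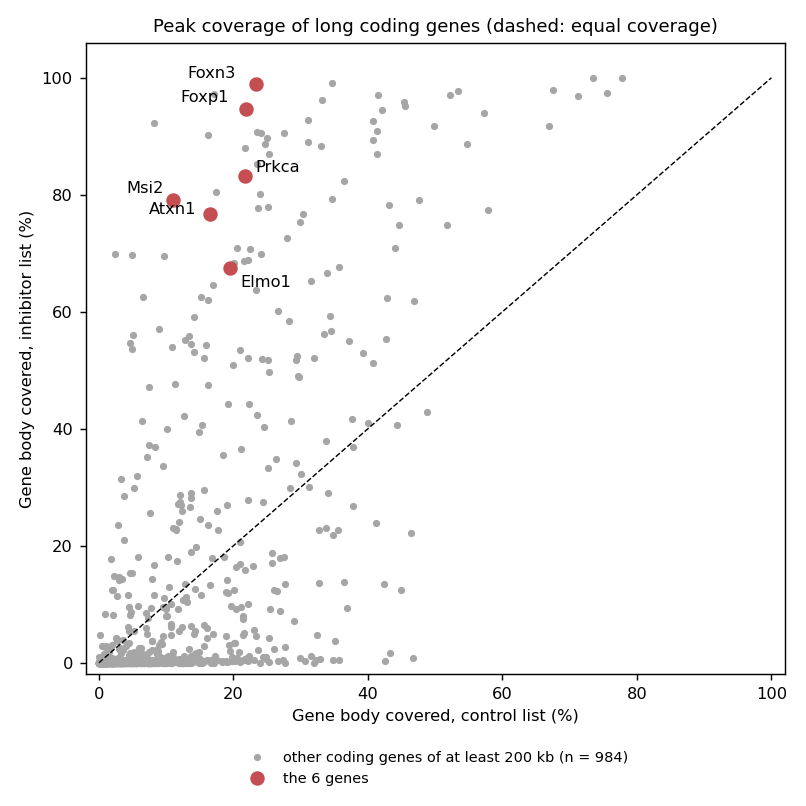
Covered percent of the gene body in the control list (x axis) and the inhibitor list (y axis) for coding genes of at least 200 kb, 1 point per gene, with the 6 genes in red and the dashed line at equal coverage. The 6 genes sit at 11.0% to 23.3% on the x axis and 67.4% to 99.0% on the y axis, while most other long genes lie near 0% in the inhibitor list.

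Of 35018 inhibitor peaks, 53 spanned at least 150 kb, and each of the 6 genes held 1 of these. The choice by added covered length favours such wide peaks, so nothing is read from this count. Such a peak lay over 0.27% of all coding genes, 3.74% of those of at least 200 kb and 2.01% of those at least as long as Foxn3. The control list held 1 peak that wide. The genes whose coverage pattern was most like the median of the 5 oriented genes were Gfra1, Zmiz1 and Ppm1h, judged by the mean absolute difference over 20 values (10 parts of the body in each of 2 libraries) among 744 long genes with a known strand. Their differences were 6.82, 7.34 and 8.16 points. Gfra1, a receptor subunit for glial-derived neurotrophic factor, was covered over 21.7% and 88.0%, Zmiz1, a transcriptional co-activator, over 23.6% and 90.7%, and Ppm1h, a protein phosphatase, over 23.9% and 80.1%. Gfra1 and Zmiz1 overlap other coding genes. Prkca was nearer to that median, at 4.37 points, and Foxp1 the farthest of the 5, at 13.7.

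Outside the gene bodies the inhibitor list was not the higher one throughout. In the 50 kb beyond the start side (the high-coordinate side for Atxn1), control peaks covered 2.48% (Msi2) to 34.9% (Elmo1) and inhibitor peaks 0.804% (Atxn1) to 26.8% (Prkca). Control coverage was the higher one there for 3 of the 6: Elmo1 (34.9% and 12.9%), Foxp1 (13.97% and 10.27%) and Atxn1 (4.05% and 0.804%). In the 50 kb beyond the far side, control peaks covered 1.38% (Prkca) to 10.18% (Foxp1) and were the higher ones for 5 of 6. Inhibitor peaks covered 0% there for Msi2, Prkca and Elmo1, 3.54% for Foxn3 and 3.58% for Foxp1. Atxn1 was the 1 with more inhibitor coverage, 7.70% and 13.4%. Of the 12 nearest coding neighbours, 1 on each side of each gene, 6 were at 0% in the inhibitor list. The median inhibitor coverage over all coding genes was only 0.446%, so nothing is read from this count. Cacng5, a calcium channel subunit gene 18.3 kb past the end of Prkca, was covered over 1.70% and 0%, and Ccdc182, 44.1 kb past the end of Msi2, over 0% in both. Akap1, 112 kb upstream of Msi2, was covered over 0% and 45.05%, and Eif4e3, 99.1 kb upstream of Foxp1, over 2.79% and 31.0%. Gpr141, 266 kb upstream of Elmo1, was the 1 of the 12 that inhibitor peaks marked, with 31.2% and 60.9%. Inhibitor peaks marked 26.1% of all coding genes.

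Relatives of the 6 genes did not all follow them. Control and inhibitor peaks marked 5.47% and 26.1% of all coding genes, and the counts of these short lists were not tested against those shares. Among 6 other FOXP and FOXN genes, control peaks marked 1 and inhibitor peaks 2. Foxp4 was covered over 0% and 64.4%, by peaks with q above 0.05 alone, and Foxn2 over 53.4% and 92.4%. Foxp2, a gene of 541 kb known for neural development, was covered over 13.03% and 0.227%. Of 8 other protein kinase C genes, 1 and 3 were marked. Prkcd, a calcium-independent isoform, was covered over 4.25% and 68.6%, Prkch, an isoform of T cells, over 52.4% and 99.1%, and Prkcq, the isoform of the T cell synapse, over 47.9% and 60.5%. Prkcb, another conventional isoform in a gene of 345 kb, was covered over 6.93% and 5.96%. Msi1 was covered over 1.72% and 0.541%. Cic, the partner of ataxin-1, was covered over 0% and 75.3%, and its relative Atxn1l over 8.19% and 67.2%. Elmo2 and Elmo3 were not marked, with Elmo2 at 6.19% and 24.6% and Elmo3 at 0% and 47.9%. The median difference was 0 points for the forkhead list, 5.85 for protein kinase C, 33.2 for the 2 ELMO genes, 67.2 for Cic and Atxn1l, and 0 over all coding genes.

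Partners of the encoded proteins were also counted, beside the 5.47% and 26.1% of all coding genes that control and inhibitor peaks marked. Of 6 genes of the ELMO, DOCK and Rac module, control peaks marked 2 and inhibitor peaks 3. Rac2, the Rac of blood cells, was covered over 23.8% and 90.7% and Rac1 over 51.2% and 100%. Dock2, the main DOCK partner in lymphocytes and a gene of 557 kb, was covered over 11.9% and 24.0%. Of 4 genes of diacylglycerol signalling, 1 and 4 were marked. Plcg1, the phospholipase that makes diacylglycerol, was covered over 33.0% and 77.4%, and Dgkz, a kinase that removes it, over 27.9% and 66.3%. Of 5 targets of Capicua, 1 and 2 were marked, with Etv5 at 9.02% and 60.4%, Etv1 at 22.7% and 0%, and Dusp6 at 85.3% and 99.2%. The peaks over Etv5 and Etv1 all had q above 0.05. Of 5 FOXP1 corepressors and targets, 3 and 5 were marked. Ncor1, a corepressor, was covered over 30.5% and 83.9%, and Il7r, the interleukin-7 receptor gene that FOXP1 restrains, over 53.2% and 100%.

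Long genes with known roles in lymphocytes varied as well. Of 11 that reached 200 kb, control peaks marked 2 and inhibitor peaks 6, beside 1.21% and 10.5% of all genes of that length. Inhibitor coverage exceeded control coverage by 25 points or more for 6, as for 30.1% of all coding genes and 10.2% of the long ones. Control coverage exceeded inhibitor coverage by as much for 1. Over all coding genes 3.07% were that much lower, and over the long ones 2.02%. Arid1b, a chromatin remodelling subunit, was covered over 24.9% and 89.8%, and Ripor2, an inhibitor of RhoA, over 33.2% and 96.1%. Inpp4b, a lipid phosphatase gene of 792 kb, went the other way, with 36.9% and 9.39%, by peaks with q above 0.05 alone.

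The cell identity given by the labels was checked on marker genes. Of 10 markers of DN3 thymocytes, control peaks marked 6 and inhibitor peaks 9, beside 5.47% and 26.1% of all coding genes. Bcl11b, at 94.0% and 100%, had the highest control coverage of the 10. Ptcra was marked in neither list (18.1% and 47.1%). Cd3e (0% and 100%), Lck (22.6% and 100%) and Notch1 (42.6% and 100%) were marked in the inhibitor list alone. The coverage of Cd3e came from peaks with q above 0.05 alone. Of 10 markers of the stroma, 0 and 1 were marked, of 6 myeloid markers 0 and 1, of 6 B cell markers 0 and 0, and of 6 stem cell markers 1 and 1. The marked ones were Thbs1 (11.8% and 59.0%), Cd68 (0% and 100%) and Kit (55.3% and 100%), while the stromal collagen genes Col1a1 and Col3a1 were at 0% in both. Of the 10 stromal markers, 2 gained at least 25 points and held an inhibitor peak at q of at most 0.05, Thbs1 and Pdgfrb (9.18% and 45.3%). Control coverage of the stromal list ranged from 0% to 15.3% and inhibitor coverage from 0% to 59.0%. The part of other cell types in the coverage of the 6 genes was not tested, and fewer marked cells and less mark per cell cannot be told apart in bulk chromatin.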

How the data were processed

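The authors deposited 2 broad peak lists, 1 per ChIP library. BWA, MACS2 2.1.0 and the build mm10 are named without roles in the submitters' processing notes, which say nothing of peak-calling options, input use or duplicate removal. Libraries had 18 PCR cycles, per the labels' protocols. Each deposited peak has a fold enrichment (a ratio to local background), −log10 p and −log10 q, and a deposited score, which is 10 times −log10 q with its decimals dropped. The lowest deposited −log10 p was 1.00 in both lists.

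Touching peaks were merged and intersected with RefSeq gene bodies of GRCm38.p6 (21887 coding genes) in Python 3.11.15 with numpy 2.4.6 and pandas 2.3.3. Strand and starts came from a RefSeq promoter table that matched 17492 of these genes. Atxn1 had no entry there and was read by coordinate. A gene was marked at 50% coverage, and long meant at least 200 kb. The coverage function was tested on simulated peaks and was exact for 200 of 200 genes. No test was run, since each condition had 1 library. Named genes were the 6 genes, those just outside their choice, the 3 most alike in profile, direct neighbours, and up to 3 genes per list with the largest difference, some of which are not reported here. Prkcb, Prkcq, Dock2, Inpp4b, Cntnap2, the marker genes and the non-coding genes were named outside this rule after their values were seen. The genes and lists were chosen with earlier results of these data known. The alternatives were thresholds on q and fold, joining of peaks, equal covered length, other coverage and gain thresholds, a length of 300 kb and removal of overlapping genes.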

Additional observations from a re-analysis of the deposited data

How the results depend on the processing

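The 6 genes were chosen by their difference in covered length, so its direction under other settings is no independent check. That direction stayed the same in all 6 with peaks within 5 kb joined (50.7 to 64.6 points). It also stayed the same with lists cut to equal covered length. The lists already covered 235 Mb and 234 Mb, so that cut removed little and could hardly have changed the direction. Dropping every peak with q above 0.05 left 35.5 to 79.3 points. Those values are inhibitor coverage alone, because no control peak in these genes was kept, and a reversal could not have appeared. Joining within 1 kb changed nothing, because the shortest gap between peaks was 1527 bp in the control and 1443 bp in the inhibitor list. With −log10 q of at least 5 or a fold of at least 3, only Prkca kept a peak. The genes marked in the inhibitor list, those gaining 25 points and those covered more on the start side were then 1 each, and the difference was 0 points in the other 5. With 80% of the body required, 3 of the 6 were marked in the inhibitor list. With any covered base, 6 of 6 were marked in the control list too.

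Counts over long genes moved as well. Inhibitor peaks marked 104 and control peaks 12. In the same order there were 44 and 0 at q of at most 0.05, 26 and 0 at −log10 q of at least 5, and 31 and 0 at a fold of at least 3. They were 618 and 942 for any covered base, where the order turned, 41 and 0 for 80% of the body, and 30 and 1 for genes of at least 300 kb. Joining within 5 kb gave 117 and 90, which are far closer to each other than 104 and 12. Against 101 gaining 25 points, 36 did so at −log10 q of at least 5, 47 at a fold of at least 3, 35 at 50 points and 28 at 300 kb. No paired analysis was possible because each condition had 1 ChIP library. Depth is unknown, and it limits which weak peaks could be called in either list.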

Other observations

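Non-coding genes inside the 6 bodies followed the peaks around them. Within Foxp1, the lncRNA genes Gm52870 and Gm32882 were covered over 10.3% and 28.1% by control peaks and 100% each by inhibitor peaks. Control and inhibitor peaks covered 0% and 100% of 3300002A11Rik, within Foxn3, and 28.9% and 100% of Gm11655, within Prkca. The microRNA gene Mir378b, near the downstream end of Msi2, lay under no peak in either list. Transcripts that share sequence with a host gene cannot be given peaks of their own, so these values describe position only.

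Non-coding genes just past the high-coordinate ends carried less. C030037D09Rik, which begins beside the Msi2 starts, was covered over 3.88% in the control and 8.23% in the inhibitor list. Gm26839, past the upstream end of Foxn3, was covered over 13.9% and 17.1%. Beside Atxn1, 5033430I15Rik was at 0% in both lists.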
